A study of Homo sapiens with 6 samples.

Results

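The mature miRNAs of the miR-31 precursor, hsa-miR-31-5p and hsa-miR-31-3p, were examined on 6 microRNA arrays of HuccT1 cells. HuccT1, also spelled HuCCT1, is an established line of human cholangiocarcinoma (CCA), a cancer of the bile ducts. Each arm has 1 probe on the array, and the 2 probes were taken by name from 2555 human miRNA probes. The control group received 0 ng/ml TGF-β and the treated group received 10 ng/ml TGF-β, both for 72 h, with 3 arrays in each group. Values are given below in the order of arrays 1, 2 and 3 of a group. All 6 arrays carried Cy5-labeled total RNA of the same line without any other treatment. It is not stated whether the arrays of a group came from separate cultures, so the spread between them may be technical.

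MiRNAs are cut from a hairpin precursor whose strands give a 5p and a 3p arm, and the mature arm guides a silencing complex to mRNAs that match its seed, the bases near its 5′ end. MiR-31 has been linked to invasion and metastasis, with opposite roles described in different tumors. In CCA it has been described as a miRNA that targets RASA1, a GTPase-activating protein that turns RAS signaling off. Its gene lies on the short arm of chromosome 9, in a region with the tumor suppressor CDKN2A that is lost in many tumors. TGF-β is a cytokine that induces EMT, and the comparison asks whether the miR-31 arms differ between HuccT1 cells with and without it.

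The sequences are shown for the member with an entry in the RefSeq table used here and for the other miRNAs that the results turn on. MIR31 was placed at chr9:21512115-21512185 on the minus strand of GRCh38.p14, within the span of the long non-coding RNA gene MIR31HG, with IFNE and MTAP as the nearest protein-coding genes. The hairpin has 71 bases, and the capitals mark bases 8 to 28, which are miR-31-5p:

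MIR31 hairpin: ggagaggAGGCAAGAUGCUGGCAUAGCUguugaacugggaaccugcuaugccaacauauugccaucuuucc

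A fold predicted with RNAfold had a minimum free energy of -36.8 kcal/mol and paired 17 of the 21 bases of miR-31-5p. The mature sequences below have bases 2 to 8, the seed, in capitals. MiR-6809-5p is shown for its similar seed, miR-491-5p as the detected product of the nearest miRNA gene, and miR-21-5p and miR-182-5p as detected miRNAs that have also been linked to RASA1:

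miR-31-5p: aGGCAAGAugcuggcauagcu

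miR-6809-5p: uGGCAAGGaaagaagaggauca

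miR-491-5p: aGUGGGGAacccuuccaugagg

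miR-21-5p: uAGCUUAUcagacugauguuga

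miR-182-5p: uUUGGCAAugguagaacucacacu

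A perfect match to the miR-31-5p seed in a target reads UCUUGCC. Among 2370 distinct mature names in the RefSeq table, no name other than miR-31-5p carried this seed, and miR-6809-5p was the only other one with the same bases 2 to 7. MiR-6809-5p was detected on 0 of 6 arrays. Position by position, the seeds of miR-491-5p, miR-21-5p and miR-182-5p matched that of miR-31-5p at 3, 2 and 1 of its 7 positions. At a shift, the miR-182-5p seed also holds the run GGCAA, with which the miR-31-5p seed begins. Among the names in the table, miR-31-5p was thus the only miRNA with this seed that the arrays detected.

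Detection on an array meant a brightness more than 2 SD above the mean of that array's 229 blank spots, and it was reached by 327 to 464 human probes per array. Signals are given after subtraction of the blank mean and scaling of each array to a median of 25 over the 292 probes that all 6 arrays detected. Detection on all 3 arrays of at least 1 group defined the 323 expressed miRNAs. The epithelial character of the line was checked with miR-141-3p, miR-429 and the a, b and c forms of miR-200-3p. All 5 were expressed, miR-429 on 5 arrays and the other 4 on all 6. None of the 5 blood markers was expressed, and miR-223-3p was seen on 1 array, TGF-β array 3. The hepatocyte miRNA miR-122-5p, the muscle miRNAs miR-133a-3p and miR-206, and miR-143-3p and miR-145-5p of smooth muscle and fibroblasts were detected on 0 arrays. Chip 1 held all control arrays together with the first TGF-β array, and chip 2 held the other two TGF-β arrays.

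Before normalization, the brightness of hsa-miR-31-5p was 532, 999.9 and 524 in the control group and 1446, 1554 and 850 with TGF-β. These values exceeded the blank mean by 139 to 302 SD of the blank spots, so the probe was far above background on every array. The brightness varied 2.97-fold over the arrays, and so did the mean of the blank spots, 2.79-fold, which was 29.5 to 54.8 in the control group against 42.5 to 82.3 with TGF-β. The brightness was 17.3, 18.2 and 17.7 times the blank mean in the control group and 17.6, 20.4 and 19.99 times with TGF-β. On that ratio the groups overlapped, since TGF-β array 1 lay below control array 2. The brightness of hsa-miR-31-3p was 53.0, 96.8 and 55.1 in the control group and 137, 116 and 87.4 with TGF-β, 6.16 to 14.4 SD above the blank mean. Both arms were thus detected on all 6 arrays, but the 3p probe was only 1.52 to 2.06 times as bright as the blank mean. A probe's brightness depends on its own sequence, so the levels of the 5p and the 3p probe were not set against each other.

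**Figure D1:**
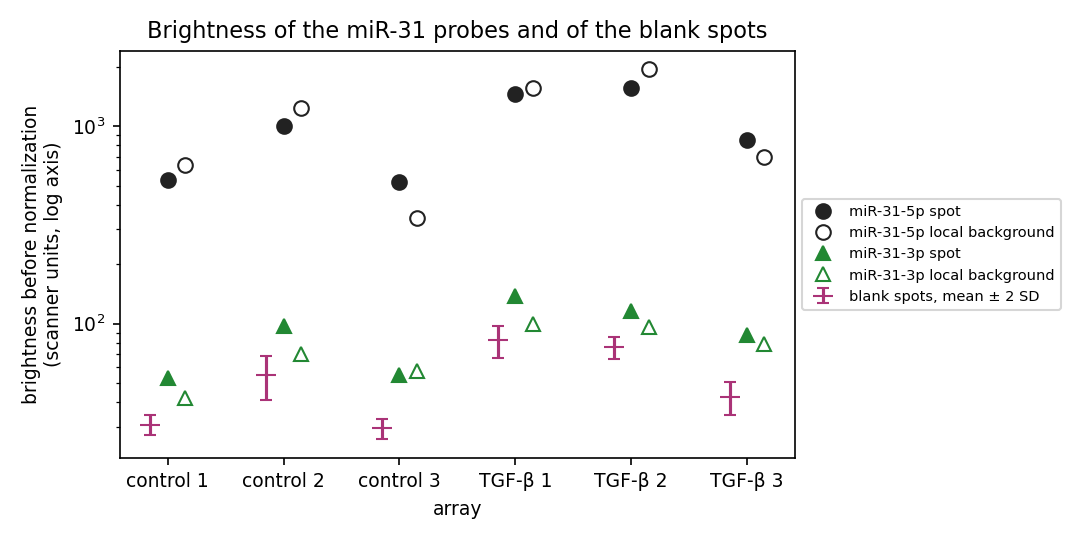
Brightness before normalization (scanner units, log axis) of the miR-31-5p and miR-31-3p spots (filled) and of the local background beside each spot (open) on the 6 arrays, with the mean ± 2 SD of the 229 blank spots. Spots and blanks move roughly, but not fully, in parallel from array to array, and the local background exceeds the miR-31-5p spot on 4 of 6 arrays.

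The local background that the scanner recorded beside the miR-31-5p spot was 634, 1233 and 342 in the control group and 1567, 1939 and 696 with TGF-β. It exceeded the spot itself on 4 of 6 arrays, namely control arrays 1 and 2 and TGF-β arrays 1 and 2. Beside the miR-31-3p spot this was so on 1 array, control array 3, and at least once for 144 of the 323 expressed miRNAs. The recorded value was thus high beside a bright spot, and whether it measures a background independent of the spot was not tested. A subtraction of it left no usable signal of miR-31-5p on those 4 arrays.

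After normalization, the signal of hsa-miR-31-5p was higher with TGF-β on every array. It was 256, 298 and 290 in the control group and 329, 315 and 390 with TGF-β. These are signals of whole cultures, so that more cells with the miRNA and more of it per cell cannot be told apart. The groups did not overlap, and the lowest TGF-β array exceeded the highest control array 1.06-fold. The mean signal was 281 ± 22.7 (SD, n = 3) in the control group and 345 ± 40.0 (SD, n = 3) in the TGF-β group, and the ratio of the means was 1.23. Among the 322 expressed miRNAs with a value on every array, 23 (7.14%) had all TGF-β arrays above all control arrays, and 32 (9.94%) did not overlap in either direction.

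The log2 change of miR-31-5p was 0.29 (standard error 0.19), with a 95% interval from -0.14 to 0.72. It did not pass the test across the expressed miRNAs (limma adjusted p = 0.93, unadjusted p = 0.16). A 2-sided exact permutation test of the 6 arrays gave p = 0.10, the smallest p that 3 arrays against 3 allow. In limma 0 of 323 expressed miRNAs (0%) passed an adjusted p of 0.05, while 21 had an unadjusted p under 0.05. The latter count was 12 without control array 1, 11 without control array 3, 11 without TGF-β array 2 and 41 without TGF-β array 3. The methods' t-test called 1 after Benjamini-Hochberg adjustment, which was miR-4521 and neither miR-31 arm. The change was smaller than the 1.5-fold threshold of the study, which 15 expressed miRNAs (4.64%) exceeded and 9 (2.79%) undercut at 0.67. Leaving out control array 2 gave 27 and 16, leaving out TGF-β array 1 raised the first count to 23, and leaving out TGF-β array 3 raised the second to 26. A higher log2 change than that of miR-31-5p was seen for 50 of the expressed miRNAs, and the median over all of them was 0.013. The SD of the log2 signal within groups was 0.14 for miR-31-5p and 0.29 at the median of the expressed miRNAs, with 35 of them below miR-31-5p.

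**Figure D2:**
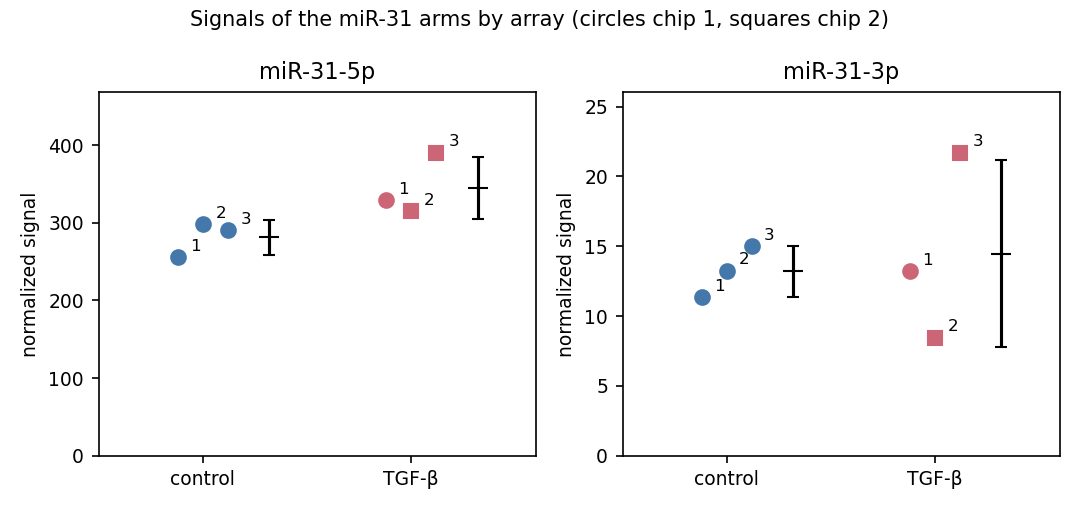
Normalized signal of miR-31-5p (left) and miR-31-3p (right) on each array, numbered by replicate, with mean ± SD (n = 3) beside each group; circles are arrays of chip 1 and squares arrays of chip 2, and both axes start at 0. For miR-31-5p all TGF-β arrays (315 to 390) lie above the control arrays (256 to 298), whereas the miR-31-3p groups overlap.

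Chip 1 was the only chip that carried both groups, with a single TGF-β array beside the 3 control arrays, so the spread of the TGF-β group could not be measured within it. In this scaling TGF-β array 1 at 329 stood 0.23 above the mean of the control arrays on the log2 scale, a direction that the lack of overlap fixes. In the authors' normalized values TGF-β array 1 at 440 lay below the mean of the control arrays, 544, but above control array 2 at 433. With scaling on the probes detected on each array, TGF-β array 1 was at 402, below control arrays 1 and 3 at 596 and 463 and above control array 2 at 375. As a multiple of the blank mean it was 17.6, within the range of 17.3 to 18.2 of the control arrays. The direction within the chip thus depended on the scaling.

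The size of the change depended on the scaling. In the authors' normalized values, miR-31-5p was 674, 433 and 526 in the control group and 440, 697 and 534 with TGF-β, so that the groups overlapped. The means there were 544 ± 121 (SD, n = 3) and 557 ± 130 (SD, n = 3), and the log2 change was 0.032 (limma adjusted p = 0.98) and an exact permutation p of 0.70. The log2 change was 0.075 when every array was scaled on the probes detected on it, 0.18 when the upper quartile (75th percentile) of the common probes was used, 0.058 with quantile normalization and 0.13 with scaling on the blank mean, and 0.44 with normexp background (limma adjusted p = 0.44). Over 8 ways of setting the scale or background, the one used here included, the groups did not overlap in 3. The median of the expressed miRNAs moved by more than 0.1 with some of these scalings. Relative to that median the log2 change of miR-31-5p was 0.28 here. Scaling on the probes detected on each array, on the upper quartile or on the blank mean left this difference at 0.28 by construction. A scale factor moves all miRNAs of an array alike, so these settings cannot test it. The difference was 0.27 in the authors' values, which are also scaled array by array. It was 0.46 with normexp background and 0.065 with quantile normalization.

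**Figure D3:**
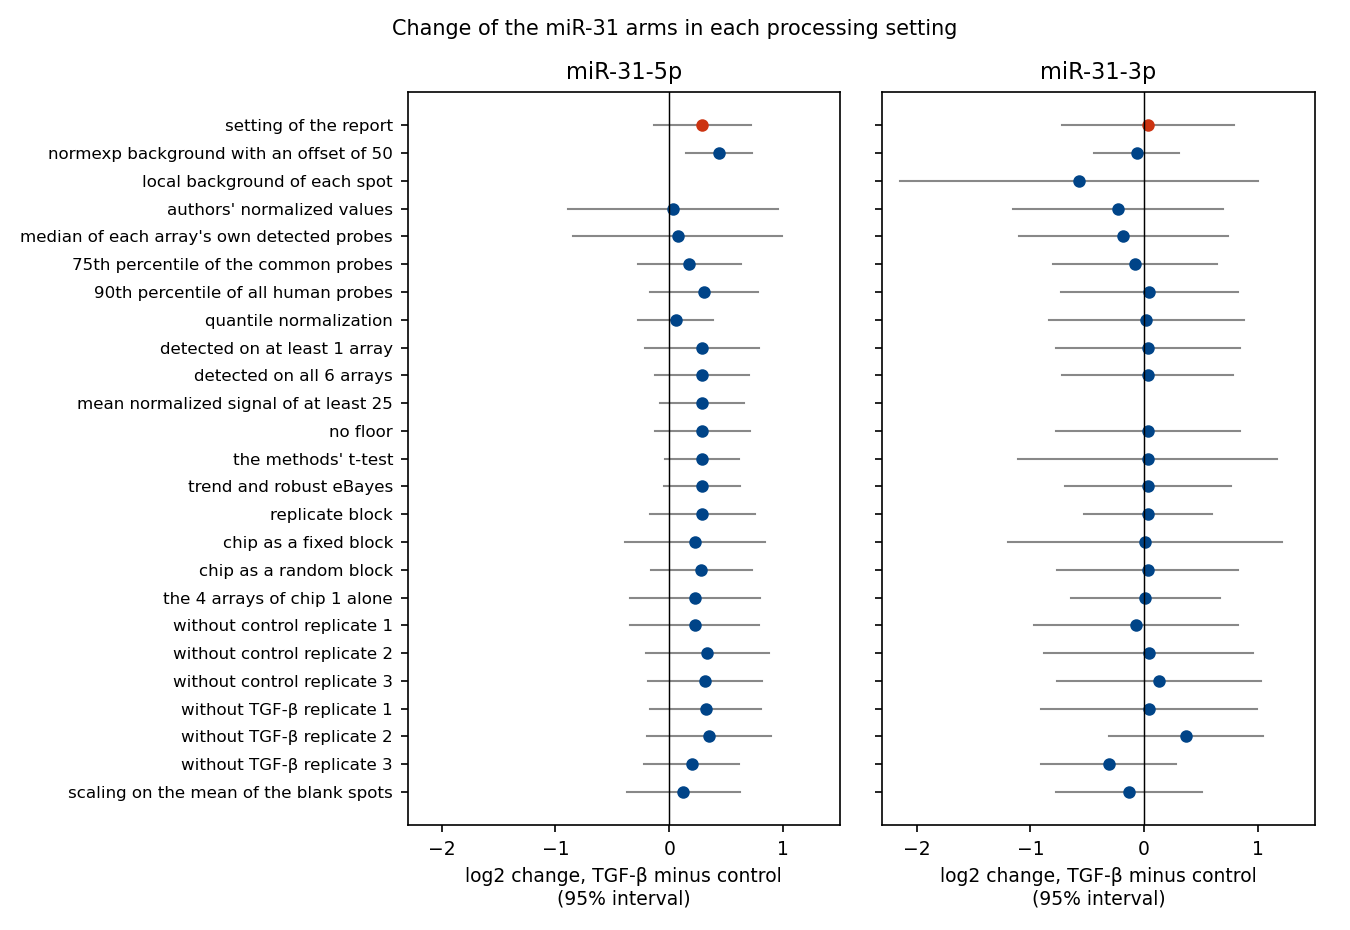
Log2 change (TGF-β minus control) of miR-31-5p (left) and miR-31-3p (right) with its 95% interval in the setting of the report (red) and in each other setting (blue); a missing point means that the setting gave no value for that arm. The points of miR-31-5p all lie above 0, from 0.032 to 0.44, and those of miR-31-3p lie on both sides of 0, from -0.57 to 0.37. Left-out arrays and changes of the test or filter could not turn the sign of miR-31-5p.

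The normalized signal of hsa-miR-31-3p did not separate the groups. It was 11.4, 13.2 and 15.03 in the control group and 13.2, 8.45 and 21.7 with TGF-β. The lowest and the highest of all 6 arrays were both TGF-β arrays, numbers 2 and 3, while TGF-β array 1 lay inside the control range. The means were 13.2 ± 1.83 (SD, n = 3) in the control group and 14.5 ± 6.71 (SD, n = 3) in the TGF-β group, a ratio of 1.09. The log2 change was 0.034 (standard error 0.33), with a 95% interval from -0.72 to 0.79 (limma adjusted p = 0.99; exact permutation p = 1). The direction of this change turned with single arrays. Without TGF-β array 3 it was -0.31 (limma adjusted p = 0.70), without TGF-β array 2 it was 0.37 (limma adjusted p = 0.99), and without control array 1 it was -0.070.

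The sign also turned with the scale. In the authors' normalized values, miR-31-3p was 30.1, 19.5 and 27.2 in the control group and 17.8, 18.7 and 29.8 with TGF-β, a log2 change of -0.23 (limma adjusted p = 0.94). The within-group SD of its log2 signal was 0.50, larger than that of 270 other expressed miRNAs.

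**Figure D4:**
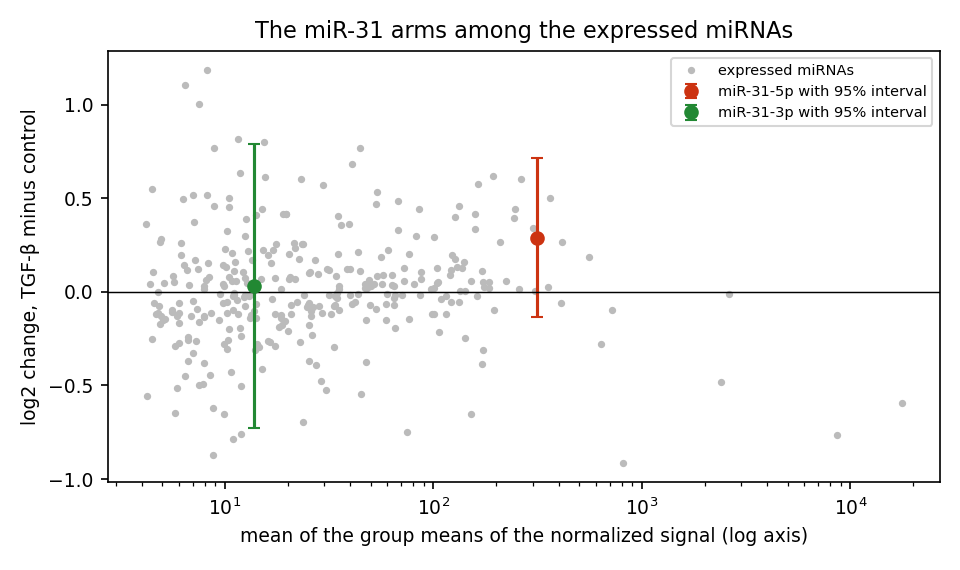
Log2 change (TGF-β minus control) of the 323 expressed miRNAs (grey) against the mean of the 2 group means of the normalized signal (log axis), with miR-31-5p (red) and miR-31-3p (green) and their 95% intervals. Both intervals include 0, from -0.14 to 0.72 for miR-31-5p and from -0.72 to 0.79 for miR-31-3p.

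Whether the arms changed to a different extent was examined within arrays, where the scaling of an array cancels. The subtraction of the blank mean does not cancel, and the 3p probe was only 1.52 to 2.06 times as bright as that mean. The log2 signal of the 5p probe minus that of the 3p probe was 4.49, 4.49 and 4.27 in the control group and 4.63, 5.22 and 4.17 with TGF-β. The size of this number reflects the brightness of both probes, so only its movement between arrays was compared. TGF-β array 2 was the highest and TGF-β array 3 the lowest of the 6. The mean was 4.42 ± 0.13 (SD, n = 3) in the control group and 4.67 ± 0.53 (SD, n = 3) in the TGF-β group. The difference between these means was 0.26 (p = 0.50 by a 2-sided exact permutation test). It was -0.017 without TGF-β array 2 and 0.51 without TGF-β array 3. It was also 0.50 with normexp background and 0.038 with quantile normalization.

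The arms were also compared over arrays. Their log2 signals had a Pearson r of 0.58 (exact permutation p = 0.20) and a Spearman rho of 0.31 (exact permutation p = 0.56) over 6 arrays. The same relation was not computed for the arms of other precursors. The Pearson r of each miR-31 arm with other miRNAs was also computed and is given below. Without control array 1 and TGF-β array 3, the arrays farthest from the median of miR-31-5p, r was -0.43. The relation was thus not positive in the 4 arrays left. These have a narrower range of miR-31-5p by choice, and their r was not tested. The arms share the scaling of each array, which moves both together.

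Among 802 precursors with a separate probe for each arm, miR-31 was 1 of 10 for which both arms were expressed. The change of the 5p arm minus that of the 3p arm ran from -0.57 for miR-6816 to 0.91 for miR-125a, with a median of 0.14. For miR-6816 and miR-629 the arms were not both detected on every array, and undetected signals took the lowest detected value. That of miR-31 was the fifth highest. The groups did not overlap for 0 of the 10. The within-group SD was 0.38 for miR-31 and 0.56 at the median of the 10 precursors, and 7 of the other precursors had a larger one.

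**Figure D5:**
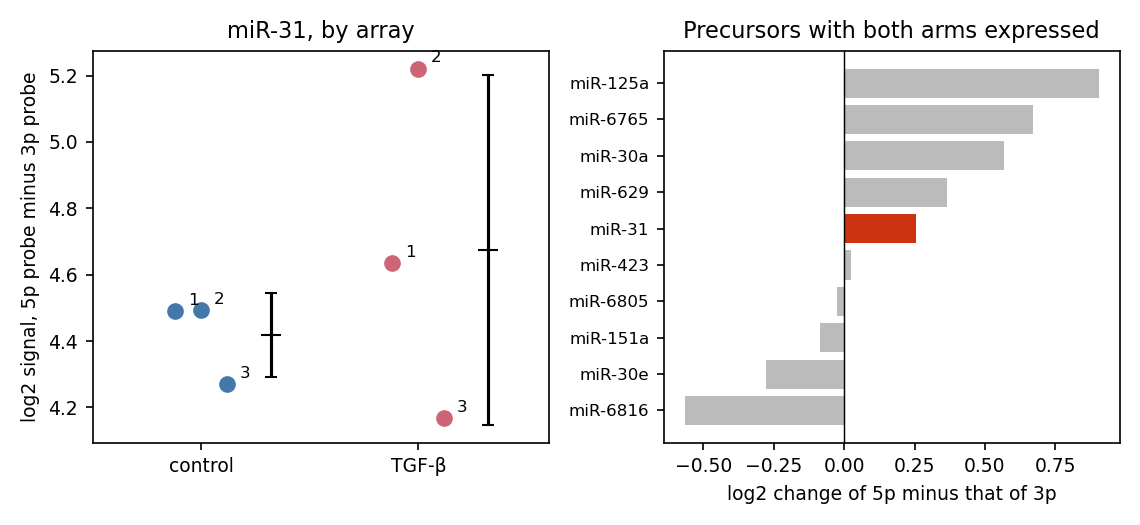
Left, log2 signal of the miR-31-5p probe minus that of the miR-31-3p probe on each array, numbered by replicate, with mean ± SD (n = 3); the axis does not start at 0. Right, log2 change (TGF-β minus control) of the 5p arm minus that of the 3p arm for the 10 precursors with both arms expressed, with miR-31 in red at 0.26.

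The miRNAs whose signal followed miR-31-5p most closely over the 6 arrays were taken by Pearson r on the log2 scale among 291 candidates detected on all of them. They were miR-29a-3p (r = 0.95), miR-221-3p (0.91), miR-28-5p (0.89), miR-4281 (0.85) and miR-200b-3p (0.84), while the median r of the candidates was -0.0091. MiR-29a-3p, of a family known to target collagen mRNAs, was 250.2, 263 and 278 in the control group and 309, 293 and 411 with TGF-β. As for miR-31-5p, by which it was picked, its groups did not overlap and TGF-β array 3 was the highest. MiR-31-3p ranked 40th among the same candidates. The closest to miR-31-3p were miR-6851-5p (r = 0.94), miR-106a-5p (0.92), miR-21-5p (0.90), miR-19b-3p (0.88) and miR-27a-3p (0.87). MiR-31-5p ranked 47th among them. In all 5, as in miR-31-3p, TGF-β array 3 was the highest array. These correlations describe 6 points that share the scaling of each array and, for miR-31-5p, the order of the groups. The named miRNAs were picked by their r, so a like order of the arrays comes with the choice.

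Other miRNAs were read from lists. Of 6 miRNAs from the same chromosome arm, miR-491-5p was detected on all 6 arrays, and miR-491-3p and both arms of miR-873 and miR-876 on 0. MiR-491-5p was 12.6, 15.9 and 14.3 in the control group and 11.8, 12.3 and 15.9 with TGF-β. Its groups overlapped, and its log2 change was -0.10 (limma adjusted p = 0.99). Its sign was opposite to that of miR-31-5p; the difference between them was not tested.

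Of 4 other miRNAs that have been linked to RASA1, miR-21-5p and miR-182-5p were expressed, miR-132-3p was detected on 0 arrays and miR-223-3p on 1. MiR-21-5p, an abundant miRNA known as an oncogene, was 670, 672 and 856 in the control group and 595, 544 and 977 with TGF-β. Its lowest 2 arrays and its highest array were TGF-β arrays, and its log2 change was -0.095 (limma adjusted p = 0.99). MiR-182-5p was 10.2, 15.1 and 10.7 in the control group and 13.1, 12.4 and 16.1 with TGF-β, with overlapping groups, and its log2 change was 0.22 (limma adjusted p = 0.99).

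Of 10 miRNAs linked to metastasis, 5 were expressed, and 0 of these passed the adjusted p in limma. Their median log2 change was 0.12, beside 0.013 for all expressed miRNAs. Besides miR-21-5p they were miR-10b-5p at 0.047, miR-155-5p at 0.12, miR-221-3p at 0.27 and miR-222-3p at 0.45. Of the 5, only miR-222-3p, which shares its seed with miR-221-3p and is known to target the cell cycle inhibitor p27, had groups without overlap in this scaling, beside 23 (7.14%) of the 322 expressed miRNAs in that direction. It was 198, 239 and 189 in the control group and 297, 277 and 276 with TGF-β (limma adjusted p = 0.69). MiR-126-3p, miR-206, miR-335-5p, miR-373-3p and miR-520c-3p were detected on 0 arrays.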

How the data were processed

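MiRNAs were measured in 6 samples on 3D-Gene Human miRNA Oligo chips. The authors deposited, for each array, the median brightness of every spot and its local background as an intensity on a linear scale, without normalization, and a table of normalized intensity with a median of 25 per array. Tool versions for the scanner software are not given in the sources used here. Groups came from the sample labels, and chips from the chip codes of the deposited files.

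From the scanner output, the mean of 229 blank spots was subtracted, arrays were scaled to a median of 25 over 292 probes detected (2 SD above the blank mean) on all arrays, undetected signals took the value of the lowest detected one, and log2 was taken. Between 0 and 2 human probes per array had a failed spot flag and were left out, and 1 expressed miRNA thus had a missing array. Groups were compared with limma 3.58.1 (lmFit, eBayes) in R 4.3.3 over 323 expressed miRNAs, adjusted by Benjamini-Hochberg with 0.05 as the threshold, and single values with 2-sided exact permutation tests. The limma step was tested on simulated data. Arm pairs were joined by name. Sequences came from RefSeq (GRCh38.p14), which matched 2235 of 2540 single-name probes and 1 of the 2 members, and the hairpin was folded with ViennaRNA 2.7.2.

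Members, lists and the rules for named miRNAs (both arms, the 5 nearest by Pearson r, and the lists) were chosen with earlier results of these data known. The muscle list also held miR-1-3p, which no probe name matched. Both groups use the same replicate numbers, and the labels do not say what a number marks. The deviations of same-numbered arrays from their group means correlated by 0.12, 0.24 and 0.33 across miRNAs. Differently numbered arrays were not compared, so these values cannot show whether the arrays were paired. The main fit used no pairing, and the replicate number was a block only among the alternatives. Alternatives covered the background, the scaling, the authors' values, the filter, the floor, the test, blocks for the chip or the replicate number, the arrays of chip 1 and single arrays left out. Precision is limited by the number of arrays.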

Additional observations from a re-analysis of the deposited data

How the results depend on the processing

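The log2 change of miR-31-5p was above 0 in all 23 other settings that gave it a value, from 0.032 in the authors' values to 0.44 with normexp background. It passed the adjusted p in none of them (limma and the methods' t-test, adjusted p between 0.44 and 0.999). With single arrays left out it ranged from 0.20 to 0.35. The lack of overlap between the groups kept it above 0 there and on chip 1 alone. Another filter, floor, test or replicate block left it at 0.29 by construction. Its sign could thus turn mainly with the scale, the background or the value table. Local background gave it no value, since the background exceeded the spot on 4 arrays. The log2 change of miR-31-3p was 0.034 and turned to -0.066 with normexp background, -0.57 with local background (without control array 3, which had no positive signal, and with a column that may not be independent of the spot), -0.23 in the authors' values, -0.18 with scaling on the probes detected on each array, -0.080 with scaling on the 75th percentile and -0.13 with scaling on the blank mean, a setting chosen after seeing the data. With single arrays left out it ranged from -0.31 to 0.37, and the arm difference from -0.017 to 0.51. The cause was not tested. With a mean signal of at least 25 miR-31-3p was not tested, and the median over every human probe was not run as a scale, since it lay 2.90 to 19.3 units below the blank mean.

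The adjusted p was passed by 0 miRNAs, by 1 with the methods' t-test (miR-4521) and by 0 to 1 with single arrays left out, where miR-629-5p passed without TGF-β array 3. In the other 17 settings it was passed by 0. The counts above 1.5 and below 0.67 were 15 and 9, but 5 and 37 in the authors' values, 6 and 27 with scaling on the probes detected on each array, 7 and 17 with scaling on the 75th percentile, 7 and 23 with the blank mean, 10 and 10 with quantile normalization, 4 and 1 with normexp background and 49 and 47 with local background.

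A replicate block leaves the group difference of this balanced design as it is by construction, at a log2 change of 0.29 for miR-31-5p, 0.034 for miR-31-3p and 0.26 for the arm difference, so only the error and p could move. With the replicate block the limma adjusted p was 0.79 for miR-31-5p and 0.98 for miR-31-3p, and 0 miRNAs passed it. The block changed no call.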
